A study of Mus musculus with 6 samples.

Results

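A set of 10 genes that end or dampen MAP kinase signalling were followed across the deposited table of hind limb muscle expression: the dual-specificity phosphatases Dusp1, Dusp2, Dusp4, Dusp5, Dusp6 and Dusp10, the Sprouty genes Spry1, Spry2 and Spry4, and the Sprouty-related gene Spred1. They were chosen by symbol, all 10 were found among the 25572 genes of the table, and all 10 passed the filter on low values. Groups were Hdc-/- mice (labelled HDCKO), which lack the enzyme that makes histamine, and wild-type mice (WT), with 3 mice per group and 1 library per mouse. All 6 mice had hind limb ischaemia surgery, in which blood flow to the leg is reduced, and RNA was taken 3 days later, so every level is one of injured muscle. The sources used here do not give age, strain, sex or the muscle taken, and uninjured muscle was not analysed here.

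MAP kinases are the last step of relays that run from receptors at the cell surface to the nucleus. Growth factor receptors act through Ras, Raf and MEK on the kinases ERK1 and ERK2, while stress and cytokine receptors act on p38 and JNK through relays of their own. The dual-specificity phosphatases named here switch these kinases off by removing phosphate from threonine and tyrosine, and Sprouty and Spred proteins act further up, between receptor and Raf. Many of these genes are themselves switched on by MAP kinase activity, which closes a negative feedback loop. In muscle, Spry1 is also known for its place in satellite cells, the stem cells of the fibre.

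The sequence before a RefSeq start site is shown for 3 phosphatases, since transcription of these genes answers to signalling. RefSeq windows (table build GRCm38.p6) were found for 8 of the 10 members, and each was placed on GRCm39 by exact match. The RefSeq starts differ from the starts of the gene spans given below, which come from the GENCODE annotation. The windows of Dusp1 and Dusp6 lie inside those spans, and the Dusp5 window ends inside its span. Capitals mark the motifs that a search of the 250 bases before the start found on either strand. Only bases outside the gene's annotated exons are printed. Dusp1 is shown for its cAMP response element (TGACGTCA, the binding site of CREB) at chr17:26727507-26727696, minus strand. Dusp5 is shown for a pair of CArG boxes, the binding site of serum response factor, at chr19:53517326-53517531, plus strand. Dusp6, at chr10:99098843-99099067, plus strand, is shown as a gene of the same family with none of these motifs.
Dusp1: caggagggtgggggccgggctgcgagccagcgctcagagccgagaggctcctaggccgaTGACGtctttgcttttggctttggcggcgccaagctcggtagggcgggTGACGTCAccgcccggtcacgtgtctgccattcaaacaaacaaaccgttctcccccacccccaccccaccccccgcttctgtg
Dusp5: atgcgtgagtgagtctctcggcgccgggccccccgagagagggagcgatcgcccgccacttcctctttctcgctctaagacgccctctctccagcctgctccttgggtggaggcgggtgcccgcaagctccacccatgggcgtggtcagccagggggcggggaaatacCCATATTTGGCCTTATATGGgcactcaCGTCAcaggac
Dusp6: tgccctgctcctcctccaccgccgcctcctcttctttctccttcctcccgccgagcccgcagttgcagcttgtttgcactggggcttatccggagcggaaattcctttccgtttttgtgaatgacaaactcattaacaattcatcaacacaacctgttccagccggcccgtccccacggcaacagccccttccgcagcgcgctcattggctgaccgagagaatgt

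The full cAMP response element was found in 1.55% of the 32851 windows of the same length in the table, and among the members only in Dusp1. Its shorter core TGACG, which lies within the full element, was found in 17.8% of windows and in Dusp1 and Dusp5. CArG boxes were found in 1.47% of windows and, among the members, in Dusp5. There they lie side by side at 82 to 63 bases before the RefSeq start (positions -82 to -63). The Dusp5 window before that start ends at 53517575, so these positions do not count from the start of the gene span given below. The AP-1 site TGANTCA (6.75% of windows), the ETS site CCGGAAGT (2.88%), the NF-kappaB site (7.25%) and the TATA box TATAAA (12.4%) were found in none of the 8 member windows. A match describes letters in a short window and is no evidence of binding.

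The libraries differed in ways that touch every gene below. Hdc was at 1.22 to 2.52 FPKM (fragments scaled to gene length and library total) in HDCKO and 7.49 to 8.17 in WT, a fall of 1.74 on the log2 scale (limma adjusted p = 0.00334). Markers of mature fibres summed to 36663 to 67314 FPKM in HDCKO and 303 to 1198 in WT, although all 6 libraries are labelled muscle, and 10 of 10 were higher in HDCKO. Markers of neutrophils (32.6 to 74.7 against 2456 to 14203), macrophages (150.4 to 706.5 against 957 to 1370) and endothelium (195 to 316 against 492 to 730) summed to less in HDCKO. Of these, 8 of 8, 4 of 9 and 7 of 8 genes fell. Lymphocyte markers (8 genes of T and B cells) summed to 77.9 in HDCKO replicate 2, to 199.7 in HDCKO replicate 3 and to between 0.328 and 3.40 elsewhere. None of these markers was listed at 0 in any library. In bulk tissue, fewer cells of a type and less RNA per cell cannot be told apart. From the step between low values, depth was estimated at 29500000 to 37600000 fragments per library.

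Of the 10 members, 6 were lower and 2 higher in HDCKO muscle, and the Sprouty genes went opposite ways. Dusp4, Dusp5, Dusp6, Spry2, Spry4 and Spred1 fell, Dusp10 and Spry1 rose, and Dusp1 and Dusp2 did not pass. Tests were made with limma on log2(FPKM + 0.5) over 13288 genes with Benjamini-Hochberg adjustment, and a gene passed at an adjusted p under 0.05. Over all genes tested, 42.6% were called lower and 17.8% higher, and 60.4% in either direction, so 6 of 10 and 2 of 10 stand on a high background. That background moved with single libraries: 18.9% were lower without HDCKO replicate 2, and 22.4%, 23.5% and 21.1% without WT replicate 1, 2 or 3. A fit of HDCKO mouse 1 alone against WT leaves out the 2 libraries holding lymphocyte markers. It holds no spread between HDCKO mice, so no calls are counted from it. The 3 values of each group did not overlap for 9 members, 7 with HDCKO below WT and 2 above, beside 51.4%, 21.2% and, in either direction, 72.6% of all genes tested. The median log2 change was -1.38 over the members and -0.50 over all genes. A member's change is therefore also given relative to the latter value. With median-of-ratios scaling the median of all genes was -0.03 and 50.6% of all calls were higher, against 29.5% on the deposited values. The share was 43.8% after quantile normalization and 57.3% after fibre and mitochondrial genes were removed from the total. Under these 3 scalings 4, 5 and 4 members were lower, beside 26.0%, 30.3% and 21.3% of all genes, and 2 were higher in each, beside 26.6%, 23.6% and 28.5%.

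**Figure D1:**
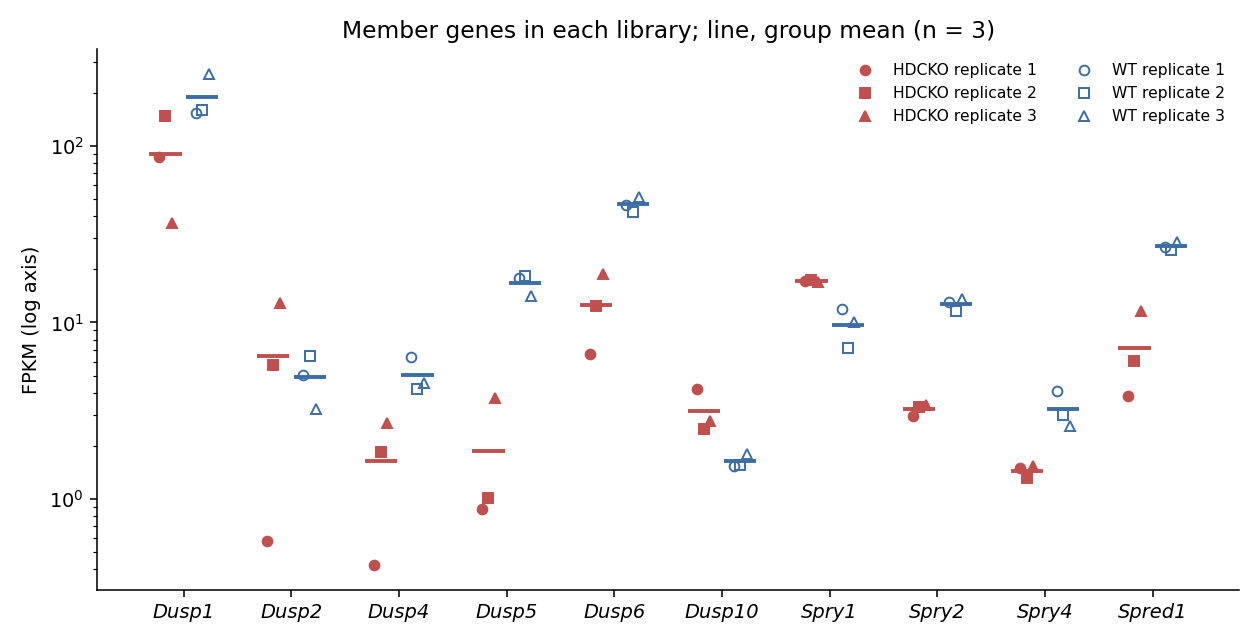
FPKM of the 10 member genes (log axis) in each of 3 HDCKO libraries (filled red) and 3 WT libraries (open blue), with symbols for replicates and a line at each group mean. Spry1 and Dusp10 lie above WT, Dusp2 spans the WT values, and the other 7 lie below WT in every HDCKO library.

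In WT muscle the members stood in a clear order of level per length. Dusp1 led with a mean of 189 FPKM, followed by Dusp6 (46.8), Spred1 (27.0), Dusp5 (16.7), Spry2 (12.7), Spry1 (9.68), Dusp4 (5.02), Dusp2 (4.90), Spry4 (3.22) and Dusp10 (1.63). The ranges of neighbours over the 3 mice did not overlap, except those of Spry2 and Spry1, Dusp4 and Dusp2, and Dusp2 and Spry4. In HDCKO muscle Dusp1 again led (90.1), Spry1 came next (17.2), and every later pair of neighbours, from Spry1 and Dusp6 down to Dusp4 and Spry4, had overlapping ranges.

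Dusp5, Dusp6 and Dusp4, phosphatases that act on ERK, were lower in HDCKO, and Dusp5 had the largest fall of the 10 members. Dusp5, a nuclear phosphatase specific for ERK (ENSMUSG00000034765, chr19:53517532-53530862 in GRCm39, plus strand), had 0.881, 1.01 and 3.73 FPKM in the HDCKO mice and 17.7, 18.2 and 14.1 in the WT mice, each in replicate order. All 3 HDCKO values lay below the lowest WT value, and the highest of them came from the third mouse. HDCKO mice averaged 1.87 ± 1.61 FPKM, 11.2% of the WT mean of 16.7 ± 2.27 (SD, n = 3 mice). The log2 change was -3.05 (SE 0.44, limma adjusted p = 0.00352), or -2.55 relative to the median gene. Its lowest values rest on an estimated 74 and 75 fragments.

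Dusp6, the cytoplasmic phosphatase specific for ERK (ENSMUSG00000019960, chr10:99086564-99103361, plus strand), had 6.66, 12.5 and 18.7 FPKM in the HDCKO mice and 46.4, 42.4 and 51.5 in the WT mice. The groups were far apart, and the HDCKO mice differed among themselves 2.81-fold against 1.21-fold among WT mice. Dusp6 fell by 1.96 on the log2 scale (SE 0.36, limma adjusted p = 0.00697), or by 1.46 relative to the median gene. Dusp4, a nuclear phosphatase of ERK and JNK (ENSMUSG00000031530, chr8:35274442-35287048, plus strand), had 0.422, 1.83 and 2.69 FPKM in HDCKO and 6.34, 4.20 and 4.52 in WT. The groups did not overlap, and the first HDCKO mouse was again the lowest. Its log2 change of -1.52 (SE 0.47, limma adjusted p = 0.0320) lost its call in the most settings of the 6 falls. It was -0.997 without HDCKO replicate 1. It missed the threshold with median-of-ratios scaling (adjusted p = 0.0579) and with fibre and mitochondrial genes removed from the total (adjusted p = 0.0792). Leaving out HDCKO replicate 2 also ended the call (adjusted p = 0.0678), as did leaving out WT replicate 1, 2 or 3 (adjusted p = 0.0976, 0.0702 and 0.0789).

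Dusp10, which acts on JNK and p38 and leaves ERK largely alone, went the other way. The gene (ENSMUSG00000039384, chr1:183745499-183807842, plus strand) had 4.20, 2.50 and 2.75 FPKM in HDCKO and 1.54, 1.56 and 1.81 in WT. Every HDCKO value lay above every WT value, with the highest in the first HDCKO mouse, where the ERK phosphatases were lowest. Dusp10 rose by a log2 change of 0.75 (SE 0.21, limma adjusted p = 0.0244), or 1.24 relative to the median gene. The call was lost without WT replicate 1, 2 or 3 (adjusted p = 0.0815, 0.0752 and 0.0614), while the change stayed between 0.72 and 0.81. The ratio of Dusp10 to Dusp6 within a library, which no rescaling of a whole library alters, was 0.631, 0.200 and 0.147 in HDCKO and 0.0332, 0.0367 and 0.0351 in WT. The ratios did not overlap, and could not, since every HDCKO value lay above WT for Dusp10 and below WT for Dusp6. The exact two-sided permutation test gave p = 0.1, the smallest value that 3 against 3 allows. That outcome was thereby fixed and adds nothing to the single genes. This ratio and those below were chosen after the values were seen. Dusp7, Dusp9 and Dusp16, further dual-specificity phosphatases, did not pass. Their log2 changes were -0.23, -0.76 and -0.48 (limma adjusted p = 0.208, 0.178 and 0.127). Dusp3, another dual-specificity phosphatase, rose by 0.54, close to the threshold (limma adjusted p = 0.0493). No division of the phosphatases by target kinase is therefore drawn.

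**Figure D2:**
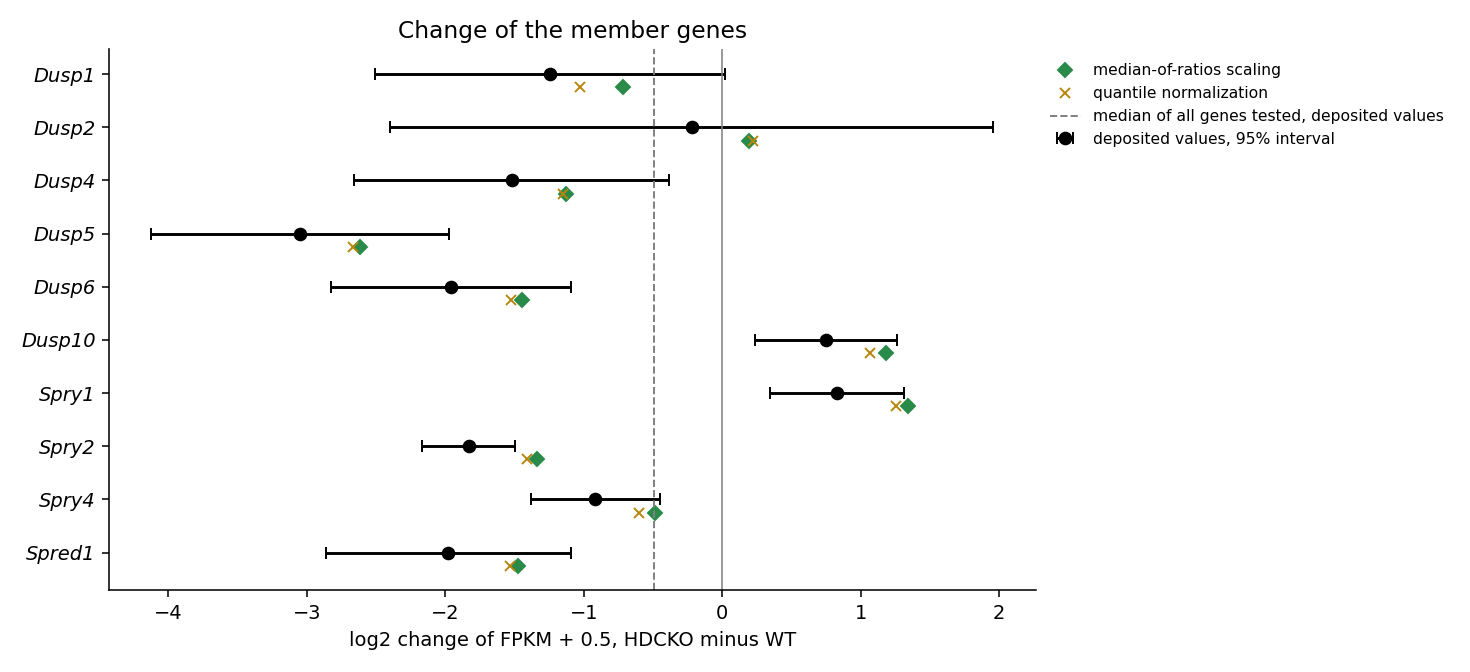
Change of each member gene, HDCKO minus WT, as log2 of FPKM + 0.5 (black points, 95% intervals from limma), with the change under median-of-ratios scaling (green diamonds) and after quantile normalization (gold crosses). The dashed line marks the median of all genes tested at -0.50. Other scalings move the points to the right, and Dusp2 alone among the members changes side of 0 with them.

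Dusp1, the most abundant member, did not pass. It is an immediate early gene whose nuclear product acts most on p38 and JNK (ENSMUSG00000024190, chr17:26724564-26781102, minus strand), and its window above holds the cAMP response element. It had 85.9, 148 and 36.5 FPKM in HDCKO and 153, 160 and 255 in WT. The groups did not overlap, but the second HDCKO mouse came close to the lowest WT value and the third was lowest of all. The log2 change was -1.24 (SE 0.52, 95% interval -2.51 to 0.02, limma adjusted p = 0.0786). With HDCKO mouse 1 alone, a fit without spread between HDCKO mice, the change was -1.10. The change passed without HDCKO replicate 2 (-1.71, adjusted p = 0.0442). It was smaller without HDCKO replicate 3 (-0.71, adjusted p = 0.108), with median-of-ratios scaling (-0.71, adjusted p = 0.361), with fibre and mitochondrial genes removed (-0.72, adjusted p = 0.317) and with sample weights (-0.44, adjusted p = 0.215).

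Values of some other immediate early genes are set beside those of Dusp1, chosen after they were seen. Fos, a subunit of AP-1, had 15.8, 68.6 and 7.77 FPKM in HDCKO and 135, 51.5 and 500 in WT. Egr1, a zinc finger factor, had 14.0, 24.7 and 8.09 in HDCKO and 97.2, 18.7 and 196 in WT. For Dusp1, Fos and Egr1 alike, the third WT mouse was the highest of the 6, and within HDCKO the second mouse was highest and the third lowest. Others did not share that order. Within HDCKO, Fosb was highest in the first mouse (8.80, 4.48 and 2.27 FPKM), Egr3 in the third (0.534, 1.12 and 2.47), and Jun was lowest in the first (34.1, 53.4 and 41.1). Their part in the Dusp1 values was not tested. Fos (adjusted p = 0.0550) and Egr1 (adjusted p = 0.0620) did not pass with limma either.

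Dusp2, a nuclear phosphatase known from activated lymphocytes and other blood cells, overlapped between the groups. The gene (ENSMUSG00000027368, chr2:127177957-127180296, plus strand) had 0.575, 5.76 and 12.9 FPKM in the HDCKO mice and 5.03, 6.43 and 3.23 in the WT mice. Its HDCKO values differed 22.5-fold, the widest spread of any member, and lay on both sides of the WT values. The log2 change was -0.22 (SE 0.90, 95% interval -2.40 to 1.96, limma adjusted p = 0.839).

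The same 3 mice stood in the same order for lymphocyte markers: the 8 markers summed to 0.328, 77.9 and 199.7 FPKM, and in the WT mice to 2.00, 3.40 and 1.75. That order is not particular to lymphocytes. Macrophage, endothelial, fibroblast and satellite cell sums shared it, and those of neutrophils, mast cells, adipocytes, mature fibres, mural and Schwann cells did not. HDCKO replicate 1 was lowest and replicate 3 highest for 57.1% of all genes tested. In WT mice, where the lymphocyte sum was at most 3.40 FPKM, Dusp2 was at 3.23 to 6.43. What part lymphocytes had in the HDCKO values was not tested. Against WT, HDCKO mouse 1 alone, with few lymphocyte markers, had a Dusp2 log2 change of -2.28. In that fit the lone library is assumed to vary like the WT mice, so no p-value is given. The comparison was added after the data were seen. Without HDCKO replicate 1 the change was 0.81 (adjusted p = 0.144).

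**Figure D3:**
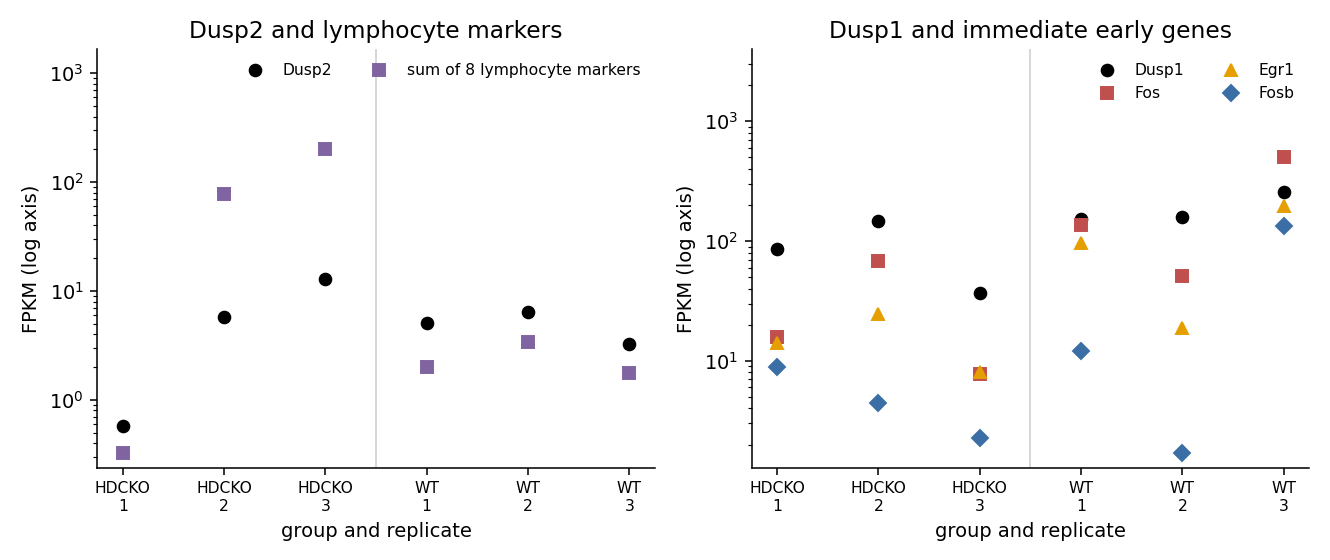
FPKM (log axis) by library of Dusp2 with the sum of 8 lymphocyte markers (left) and of Dusp1 with the immediate early genes Fos, Egr1 and Fosb (right), for HDCKO replicates 1 to 3 and WT replicates 1 to 3. Dusp2 and the lymphocyte sum are both lowest in HDCKO replicate 1 and highest in HDCKO replicate 3, and Dusp1, Fos, Egr1 and Fosb are all highest in WT replicate 3. Within HDCKO, 57.1% of all genes tested are lowest in replicate 1 and highest in replicate 3.

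Spry1 rose while Spry2 and Spry4 fell, and on the deposited values the sums of the 3 genes overlapped between the groups. Sprouty proteins are inhibitors of receptor tyrosine kinase signalling to Ras and ERK. Spry1 (ENSMUSG00000037211, chr3:37693897-37698755, plus strand) had 17.3, 17.5 and 16.9 FPKM in HDCKO and 11.9, 7.17 and 9.99 in WT. Spry2 (ENSMUSG00000022114, chr14:106128766-106136446, minus strand) had 2.94, 3.30 and 3.43 in HDCKO and 13.0, 11.6 and 13.6 in WT. Spry4 (ENSMUSG00000024427, chromosome 18, 38719300 to 38736025, minus strand) had 1.51, 1.31 and 1.53 in HDCKO and 4.09, 2.98 and 2.60 in WT. No group overlapped for any of the 3 genes, with Spry1 above WT and the other two below.

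Spry1 rose by a log2 change of 0.83 (SE 0.20, limma adjusted p = 0.0155), or 1.32 relative to the median gene. The call was lost without HDCKO replicate 2 (0.82, adjusted p = 0.0590). Spry2 fell by 1.83 (SE 0.14, limma adjusted p = 4.26e-04), the smallest p of the members, and stood at 25.3% of its WT mean. Spry4 fell by 0.92 (SE 0.19, limma adjusted p = 0.0103), or only by 0.42 relative to the median gene. With median-of-ratios scaling its change was -0.48 (adjusted p = 0.104), after quantile normalization -0.60 (adjusted p = 0.0888), and with fibre and mitochondrial genes removed -0.49 (adjusted p = 0.0741).

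Summed per length, the 3 Sprouty genes held 21.7, 22.1 and 21.9 FPKM in HDCKO and 29.0, 21.7 and 26.2 in WT, and these sums overlapped (exact two-sided permutation p = 0.3, n = 3 each). Those sums depend on scaling and were not computed after rescaling, and an overlap at this group size does not show equality. Spry1 made up 79.5%, 79.2% and 77.4% of the sum in HDCKO and 41.0%, 33.0% and 38.2% in WT. Spry2 made up 13.5%, 14.9% and 15.7% in HDCKO and 44.9%, 53.3% and 51.9% in WT. Within a library, Spry1 exceeded Spry2 5.87-, 5.30- and 4.94-fold in HDCKO, while in WT the ratio of Spry1 to Spry2 was 0.911, 0.619 and 0.736. The leading Sprouty gene was thus Spry1 in every HDCKO mouse and Spry2 in every WT mouse, a difference of 2.84 in mean log2 ratio. The groups already lay apart in opposite directions for these genes, so the ratios had to separate. The exact permutation p = 0.1 (n = 3 each, the smallest possible) was thereby fixed and adds nothing to the single genes. Such a ratio shows unequal change of the pair and not which of them moved.

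**Figure D4:**
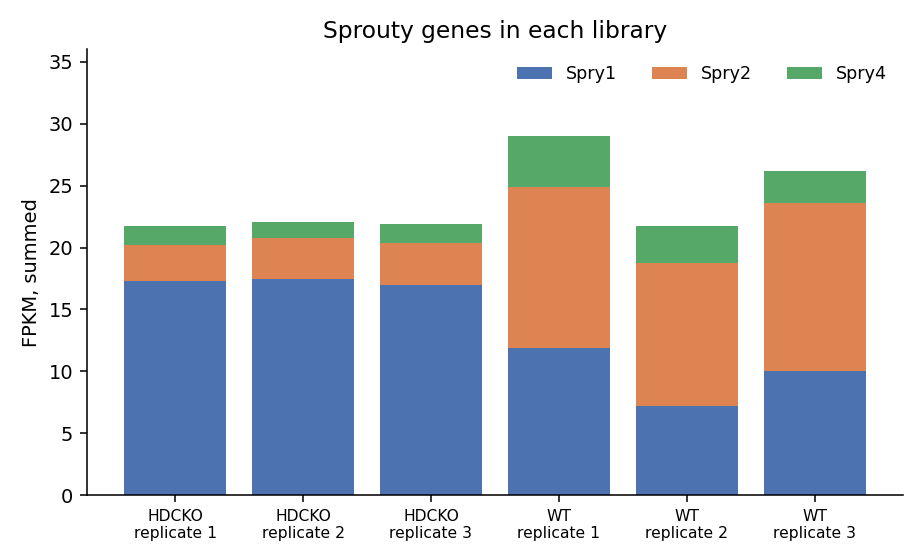
Summed FPKM of Spry1 (blue), Spry2 (orange) and Spry4 (green) in each library. The bars of the HDCKO libraries reach 21.7 to 22.1 FPKM and are mostly Spry1, and those of the WT libraries reach 21.7 to 29.0 FPKM with Spry2 as the largest part.

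Spred1, whose product brings the Ras inactivator neurofibromin to the membrane, behaved like Dusp6. The gene (ENSMUSG00000027351, chr2:116951524-117018277, plus strand) had 3.83, 6.01 and 11.5 FPKM in HDCKO and 26.8, 25.8 and 28.5 in WT. WT mice were close together and all far above the HDCKO mice, of which the third was highest. The log2 change was -1.98 (SE 0.36, limma adjusted p = 0.00718), or -1.48 relative to the median gene. At 14.2%, 22.3% and 42.7% of the WT mean, the HDCKO mice lay near the 14.2%, 26.7% and 40.0% seen for Dusp6.

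On the deposited values, the Sprouty genes had the smallest spread of the members within HDCKO, which they did not have within WT. The coefficient of variation over the 3 HDCKO mice was 1.58% for Spry1, 7.88% for Spry2 and 8.50% for Spry4. It was 29.2% for Dusp10, 47.8% for Dusp6, 55.8% for Spred1, 62.0% for Dusp1, 69.4% for Dusp4, 86.0% for Dusp5 and 96.6% for Dusp2. Over the 3 WT mice it was 24.5% for Spry1, 8.06% for Spry2 and 24.1% for Spry4, and ran from 5.08% for Spred1 to 32.7% for Dusp2 among the other members. The median over all genes tested was 27.0% in HDCKO and 11.7% in WT. Median-of-ratios scaling factors were 0.670, 0.817 and 1.05 in the HDCKO mice and 1.18 to 1.22 in WT. Spread and order among HDCKO mice therefore depend on scaling, and were not computed on rescaled values. A group of 6 of the 10 members, Dusp2, Dusp4, Dusp5, Dusp6, Spry2 and Spred1, were lowest in HDCKO replicate 1 and highest in replicate 3. That order held for 57.1% of all genes tested, and for the summed macrophage markers (150.4, 451.7 and 706.5 FPKM) and endothelial markers (195, 262 and 316). Whether these cells carry the difference between HDCKO mice was not tested.

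Dusp2 lies 0.717 Mb and Spred1 9.42 Mb from Hdc on chromosome 2, the only members on that chromosome. Of 186 tested genes within 10 Mb of Hdc, 115 were called in either direction (61.8%), beside 60.4% of all genes tested. The count was 58 without HDCKO replicate 2, and 67, 76 and 64 without WT replicate 1, 2 or 3. Shares within the window were not computed for these fits, so the counts cannot be set against percentages of all genes. Calls over all genes were fewer in the same fits, with 18.9% lower and 13.2% higher without HDCKO replicate 2, and 21.1% to 23.5% lower and 13.9% to 14.9% higher without a WT replicate. Genes with an annotated partner on the opposite strand whose span overlaps their own were 8 of the 10 members, all but Dusp4 and Spred1. Spans include introns, overlap of exons was not examined, and the share over all genes was not computed. The partners of Dusp5, Spry2 and Spry4 are not in the deposited table. The sources used here do not say whether counting used strand, so reads shared by such pairs, if any, cannot be told apart.

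Around the members, 7 lists of pathway genes were read in the same fit. Of their 144 genes, 135 were tested, 71 fell and 16 rose (52.6% and 11.9%), with a median log2 change of -0.76. Without HDCKO replicate 2 these counts were 44 lower and 9 higher, and without WT replicate 3 they were 45 and 11. Without WT replicate 1 or 2, 9 and 10 rose. Of 12 genes tested in the list of other MAP kinase phosphatases, 5 rose, 2 fell, and the median was 0.06. That list also holds the more general phosphatase genes Ppm1a, Ppm1d and Ppp2ca. Both falls were among these: Ppm1d (-0.46, limma adjusted p = 0.0369) and Ppp2ca (-0.60, adjusted p = 0.0187). Ppm1a rose (0.55, adjusted p = 0.0370). Dusp22, an atypical phosphatase of the JNK pathway, had 13.5 ± 0.567 FPKM in HDCKO mice against 7.48 ± 0.790 in WT mice (SD, n = 3). It rose by a log2 change of 0.81 (limma adjusted p = 0.00545). Dusp8, a JNK and p38 phosphatase, rose from 0.740 ± 0.158 to 3.37 ± 1.39 FPKM (1.57, adjusted p = 0.00926), and Dusp14 from 2.04 ± 0.643 to 4.57 ± 1.07 (1.01, adjusted p = 0.0170). Dusp14 missed the threshold without HDCKO replicate 2 (adjusted p = 0.0537), WT replicate 1 (adjusted p = 0.0585) or WT replicate 2 (adjusted p = 0.0559).

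Of 21 other brakes on receptors, Ras and ERK tested, 16 fell and 2 rose, with a median log2 change of -1.05. Spred3, the paralogue of Spred1, fell from 3.35 ± 0.197 FPKM in WT mice to 0.260 ± 0.187 (log2 change -2.37, limma adjusted p = 6.53e-04). Errfi1, an inhibitor of the EGF receptor induced by its own signal, fell by 1.38 (adjusted p = 0.00143). Erf, a repressor that ERK expels from the nucleus, fell by 1.56 (adjusted p = 0.00366).

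Among upstream genes, 10 of 18 growth factor receptors fell and 1 rose (median log2 change -0.64). Pdgfra, the PDGF receptor of fibroblasts, fell by 2.11 (limma adjusted p = 0.00345), Kit, the receptor of stem cell factor, by 2.36 (adjusted p = 0.00706), and Egfr by 1.26 (adjusted p = 0.00444). Of 19 ligands tested, 8 fell and 2 rose (median -0.60). Egf, a ligand of the EGF receptor, rose from 0.224 ± 0.0590 to 7.75 ± 1.06 FPKM (3.50, adjusted p = 1.47e-04). Ereg, another ligand of that receptor, went the opposite way, from 4.92 ± 1.06 FPKM in WT to at most 0.0321 in any HDCKO library (-3.38, adjusted p = 1.90e-04). Fgf7, a fibroblast growth factor made by stromal cells, fell by 2.83 (adjusted p = 9.87e-04).

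In the relay from receptor to ERK, 12 of 22 genes fell and 2 rose (median log2 change -0.54, close to that of all genes). Ksr1, a scaffold for Raf, MEK and ERK, rose from 2.90 ± 0.494 to 14.7 ± 1.84 FPKM (2.17, limma adjusted p = 4.91e-04), while Braf, a Raf kinase, fell by 1.47 (adjusted p = 0.00365). In the p38 and JNK relays, 5 of 19 fell and 4 rose (median -0.07). Mapk12, the p38 form abundant in skeletal muscle, rose from 7.71 ± 0.203 to 47.6 ± 7.40 FPKM (2.54, adjusted p = 2.34e-04), and so did the p38 kinase Map2k6 (1.56, adjusted p = 0.00353). Mapk13, another p38 form, fell by 2.60 (adjusted p = 0.00247). Fibre markers moved with these changes, as given above, and their part was not tested.

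Transcripts that ERK induces fell in 18 of 24 cases and none rose, with a median log2 change of -1.94. Ier3, an immediate early gene, had 8.77, 14.0 and 12.8 FPKM in HDCKO and 195, 153 and 154 in WT (-3.78, limma adjusted p = 2.04e-04). Fosl2 and Junb, subunits of AP-1, fell by 2.26 (adjusted p = 3.82e-04) and 2.46 (adjusted p = 4.91e-04). Spry2, Dusp6 and Spred1 fell beside these genes, while Spry1, also among the feedback genes of the pathway, rose. The 7 lists were chosen with earlier results in view, and a list's count is a description beside the 42.6% lower and 17.8% higher of all genes tested.

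**Figure D5:**
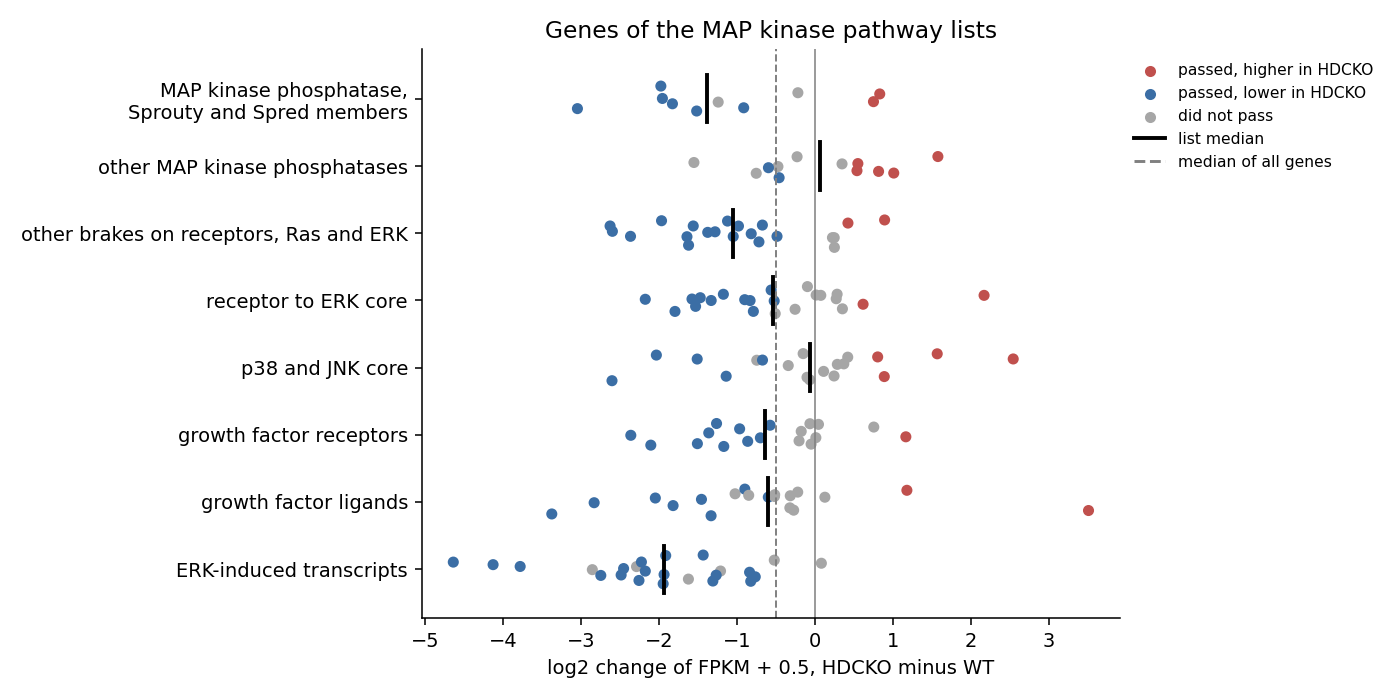
Log2 change, HDCKO minus WT, of each tested gene in the member set and 7 pathway lists, coloured by call (red, passed and higher; blue, passed and lower; grey, did not pass), with list medians (black bars) and the median of all genes (dashed line at -0.50). Medians run from -1.94 for ERK-induced transcripts to 0.06 for the list of other MAP kinase phosphatases.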

How the data were processed

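RNA was measured in 6 libraries of hind limb muscle, and the authors deposited FPKM values per gene. For the authors' work, the submitters' processing notes name FastQC 0.11.9, HISAT2 2.1.0, HTSeq 0.11.2, STAR 2.7.11b, DESeq2 1.22.2 and the build GRCm39. The sources used here do not say which aligner gave the deposited values. FPKM is relative to the library's total, so a larger share of some transcripts leaves a smaller share for the rest, and fibre and mitochondrial genes held 27.7% to 46.3% of the total in HDCKO and 3.68% to 4.53% in WT. HDCKO was compared with WT by limma-trend (limma 3.58.1, R 4.3.3) on log2(FPKM + 0.5). The 13288 genes tested averaged 0.5 FPKM or more over the 6 libraries, with no covariate, Benjamini-Hochberg adjustment and a threshold of 0.05. Fold changes of low genes are damped by the 0.5. The procedure was tested on simulated data. Whether the mice are littermates is not stated, and 1 library per mouse means p-values measure the spread between mice. Positions come from GENCODE M39 (GRCm39). Depth was estimated from the step between low FPKM values and exon lengths, and estimated fragments cover counting error only.

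Fos, Egr1, Fosb, Egr3, Jun, Dusp3, Dusp7, Dusp9, Dusp16, Ppm1a, Ppm1d and Ppp2ca were added after their values were seen. Otherwise the text names all 10 members, Hdc and up to 3 genes per pathway list with the smallest p among those that passed. A result under this rule is not reported here. The members and lists were chosen with earlier results of these data known. Marker lists also covered fibroblasts (2 of 7 fell), mural cells (2 of 6 rose), Schwann cells (2 of 5 rose), satellite cells and myoblasts (1 of 4 rose), mast cells (1 of 5 tested fell), adipocytes (0 of 5 passed) and lymphocytes (0 of 8 passed). Alternatives were other pseudocounts, filters and scalings, sample weights, a replicate block and leaving out each library.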

Additional observations from a re-analysis of the deposited data

How the results depend on the processing

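Over 16 other settings, Dusp5, Dusp6, Spry2 and Spred1 stayed lower in all 16, and called in each setting with more than 1 HDCKO mouse. Counts of members lower ran from 4 to 6 in the settings with more than 1 HDCKO mouse, beside 18.9% to 58.1% of all genes. Members higher were 1 with no filter, beside 10.6% of all genes. They were 1 to 2 when a library was left out, beside 13.2% to 18.6%. Leaving out 1 library gave 44 to 78 pathway genes lower and 9 to 20 higher. It gave 58 to 142 genes called within 10 Mb of Hdc, without a share in that window. In those fits 18.9% to 55.1% of all genes were lower and 13.2% to 18.6% higher. Pathway genes higher were 25 with median-of-ratios scaling, beside 26.6% of all genes. With fibre and mitochondrial genes removed from the total 29 were higher and 43 lower, beside 28.5% and 21.3%. A window of 5 Mb around Hdc held 68 called genes of 98 tested (69.4%), beside 60.4% of all genes tested. The direction of Dusp2, not called in these settings, reversed with median-of-ratios scaling (0.20), quantile normalization (0.22), removal of fibre and mitochondrial genes (0.21) and sample weights (0.19). When a library was left out it ran from -1.01 to 0.81 (without HDCKO replicate 3 and 1). With no filter, Dusp4 (adjusted p = 0.0636) and Dusp10 (adjusted p = 0.0564) did not pass. The cause was not tested. With the replicate number as a block, 5 members were lower and 2 higher, beside 38.3% and 15.7% of all genes. Dusp4 missed the threshold there (adjusted p = 0.0545). Deviations of same-numbered mice correlated at 0.122, 0.0666 and 0.138 across genes, and those of different-numbered mice at -0.182 to 0.112. These values do not settle whether the numbers pair the mice, and the main fit had no block. Sample weights were estimated gene by gene, a method chosen after the default (REML) had not converged and gave 1 library nearly all the weight. Values under 1 FPKM rest on few fragments.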
